A study of Mus musculus with 2 samples.

Results

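Kinesins are motor proteins that use ATP to move along microtubules or to take them apart. One set builds the spindle, moves chromosomes and completes cytokinesis in dividing cells, another carries vesicles, mitochondria and other cargo in most cells, a further set is known chiefly from axons and dendrites, and others serve cilia and Hedgehog signalling. A proliferating myoblast therefore offers a comparison of motors of division with motors known from neurons, within a single gene superfamily. Kinesin genes were taken from the deposited table of gene activities as every entry whose symbol starts with Kif followed by a digit or by c, which gave 52 of 24165 RefSeq entries and 43 of 20128 gene symbols. The rule used names alone and no measured value. Of the 43 symbols, 41 are kinesins. Kif1bp, which encodes a protein that binds kinesins and is not a motor, and the pseudogene Kif4-ps also match the rule. The 41 kinesins were divided by their known roles into 14 mitotic, 9 transport, 8 neuronal, 6 ciliary or signalling and 4 other genes. These classes and the gene lists used below were chosen with earlier results of these data known.

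The data are GRO-seq measurements of untreated C2C12 cells, an established line of mouse myoblasts, grown to 80% confluency. GRO-seq labels the RNA of engaged RNA polymerases in isolated nuclei, so reads in a gene body mark polymerases that were transcribing, not the amount of mature mRNA. The authors pooled 2 replicate libraries, each from nuclei of 4 plates, into 1 value for each entry, given in RPKmM, which scales the read count to the mappable length of the gene and to the size of the library. Entries that the authors could not tell from the read density of gene deserts are marked Inactive. There is 1 group and 1 value per entry, so no difference below has a replicate error or a test, no counting interval was computed for an activity, and the table gives no read depth. Values are rounded to 0.01 RPKmM. All 8 genes listed as myoblast markers were active, where 68.7% of all gene symbols were, from 2.39 RPKmM for Myod1 to 72.45 for Des, which encodes desmin.

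A motif that is known from promoters of genes expressed late in the cell cycle recurred in the promoters of the mitotic kinesins. This is the cell cycle genes homology region (CHR), a site of the DREAM and MuvB complexes, searched here as TTTGAA or TTCGAA on either strand. RefSeq promoter windows, from 250 bases before to 50 bases after the annotated start, were at hand for 33 of the 41 kinesins. Kif20a, Kif5b, Kif13b, Kifc3, Kif5a, Kif21b, Kifc2 and Kif19a had none. The windows carry the letters of GRCm38.p6 and each was found exactly once in the mm9 sequence, from which the coordinates are given. Of the 13 mitotic kinesins with a window, 11 held a CHR (84.6%), all of them the form TTTGAA, against 18.2% of all genes of the table that had a window. On the sense strand alone these shares were 46.2% and 11%. The sites nearest to the start are given to compare what surrounds the motif, each as 30 bases read so that the motif, in capitals, runs 5′ to 3′, with mm9 coordinates and the strand printed.
Kif11 (chr19:37450841-37450870, minus strand): ccgcgcctcaatTTTGAAaaatggagacga
Kif22 (chr7:134185934-134185963, plus strand): ccgcttctctctTTTGAAttaccggggccc
Kif15 (chr9:122860168-122860197, minus strand): gatggccgcagaTTTGAAtttggcgcccca
Kif23 (chr9:61794587-61794616, minus strand): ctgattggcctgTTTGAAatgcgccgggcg
Kif18b (chr11:102786418-102786447, minus strand): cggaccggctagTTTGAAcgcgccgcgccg
Kif20b (chr19:34996843-34996872, plus strand): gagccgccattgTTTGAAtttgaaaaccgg
Kif4 (chrX:97821411-97821440, plus strand): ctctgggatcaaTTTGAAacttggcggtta
Kifc1 (chr17:34027560-34027589, plus strand): acacccgccactTTTGAAtttcaacctccg
Kifc5b (chr17:27054053-27054082, minus strand): acaccagtcactTTTGAAtttcaacctccg
Kif2c (chr4:116851463-116851492, plus strand): gcattactcaggTTTGAAagagcagcctgg
Kif14 (chr1:138364185-138364214, plus strand): ggaggtcctgtcTTTGAAgtctgcagtgtc

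The CHR lay within 50 bases of the annotated start, a distance chosen after the positions had been seen, in 9 of the 13 mitotic kinesins (69.2%) and in 4.81% of all genes. Counting the start as 1 and the base before it as -1, the first base of the site was at -19 in Kif11 and Kif15, at -17 in Kif22, at 2 in Kifc1, at 3 in Kif23, at 4 in Kif18b, at 8 in Kif20b, at 20 in Kif4 and at 30 in Kifc5b. The sites of Kif2c, at -103, and of Kif14, at -228, were farther away. Kif20b held a second copy at 14, directly behind the first, while Kif22 and Kif15 each held a further copy upstream, at -215 and -234. The sites of Kifc1 and Kifc5b, near-identical genes on chromosome 17, had 28 of 30 bases in common. The RefSeq starts of Kif2c and Kif4 lay more than 250 bases from the start of the gene in GENCODE vM1, so that the positions given for them depend on the annotation. The mitotic kinesins without the motif were Kif18a and Kif2b.

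The mitotic kinesins were active with a single exception. The class holds 14 genes, of which 13 were active (92.9%), against 68.7% of all gene symbols and 87.8% of the 41 kinesins. The active genes had a median of 1.38 RPKmM, with quartiles of 0.92 and 3.54, where all active genes of the table had a median of 0.87 and quartiles of 0.22 and 2. At least 1 RPKmM was reached by 8 of the 14 (57.1%), against 31.6% of all gene symbols. Their levels thus lay mostly in the upper part of the table, but 5 active members were below 1. A gene with several entries is given here by its highest entry, since the entries of a gene overlap and share reads.

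Kif22, a chromokinesin that pushes chromosome arms away from the spindle poles, had the highest activity of all kinesins, at 8.35 RPKmM (NM_145588), above 96.3% of active genes. In the GENCODE vM1 annotation of mm9 it lies at chr7:134171246-134185934 on the minus strand. The kinesin-6 motors of the central spindle and cytokinesis followed. Kif20a, which brings the chromosomal passenger complex to the central spindle, had 3 entries at 4.46, 4.64 and 4.7 RPKmM. Kif20b, which acts in the completion of cytokinesis, had 4.51, and Kif23, the motor subunit of centralspindlin, had 3.54. Kif11, the motor that slides spindle poles apart, had 3.47 and lies at chr19:37450893-37496349 on the plus strand. These 5 genes lay above the upper quartile of active genes and apart from the other mitotic kinesins, the next of which was at 1.54. For the table as a whole, 17.1% of gene symbols lay above this quartile.

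The remaining active mitotic kinesins formed a closer group, from 0.5 to 1.54 RPKmM. Kif18b, which works on the plus ends of astral microtubules, had 1.54. Kif2c, a depolymerase that corrects faulty attachments at kinetochores, had entries at 1.36 and 1.38. Kifc1, a minus-end motor that bundles spindle microtubules, had 1.05. Kif15, which can share the work of spindle separation with Kif11, and Kif4, a chromokinesin that shortens the central spindle, were each listed at 0.92. Kif14, which binds citron kinase in cytokinesis, had 0.62, and Kif18a, which dampens the movement of chromosomes at the metaphase plate, had 0.5. Between Kif22 and Kif18a the ratio was 16.7, and rounding alone allows 16.5 to 16.9. Kifc5b, the near copy of Kifc1, had 0.84, but how uniquely mapped reads divide between such copies could not be examined, so both values are uncertain. Kif2b, a short gene spanning 2.295 kb with a role at kinetochores, was marked Inactive.

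**Figure D1:**
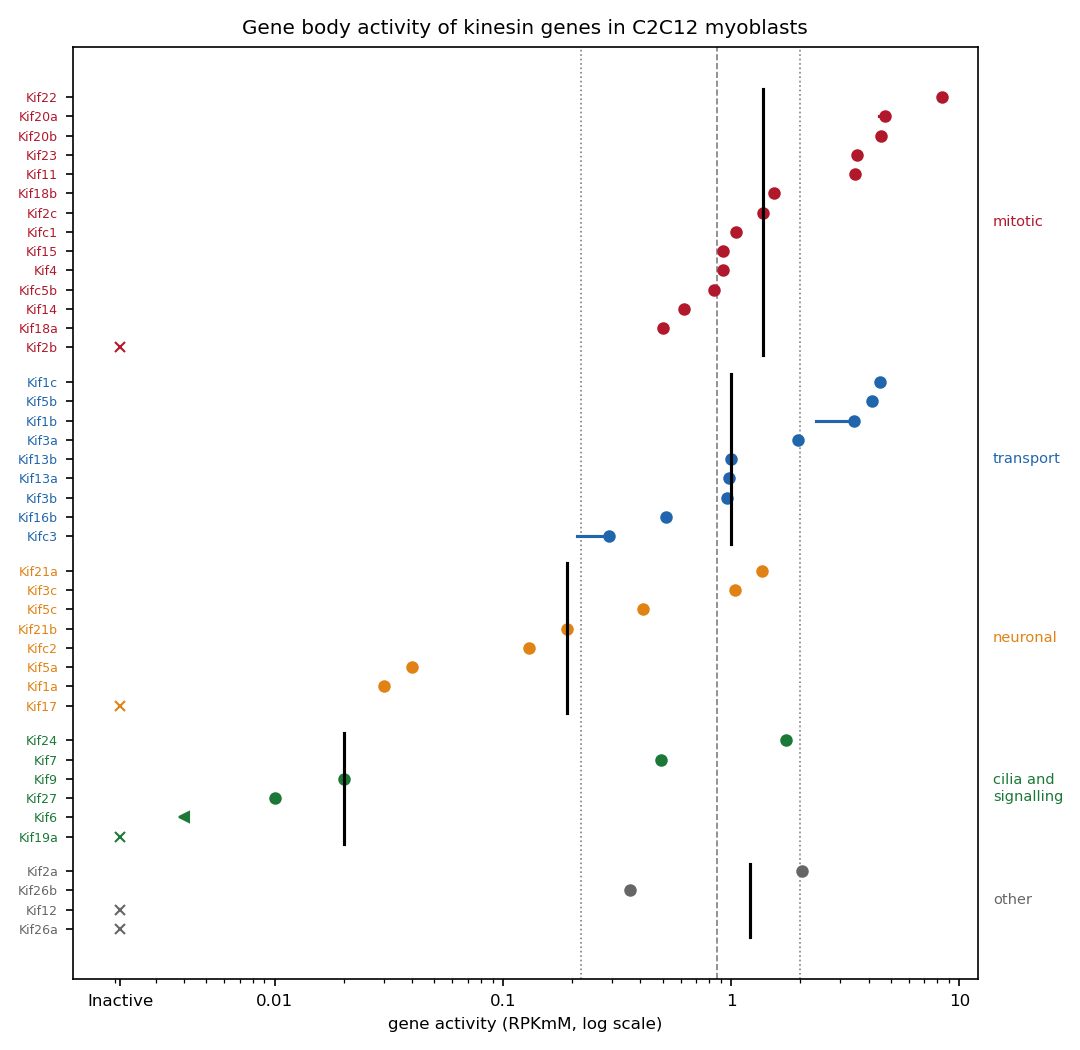
Gene activity in RPKmM on a log axis, a point for each kinesin gene at its highest entry, coloured by class, with a line to its lowest entry where entries differ, crosses for genes marked Inactive and a triangle for Kif6, which is active and listed at 0. Black bars are medians over the active genes of a class (1.38 for mitotic, 1 for transport, 0.19 for neuronal, 0.02 for ciliary or signalling and 1.21 for other genes), and grey lines are the quartiles of all active genes at 0.22, 0.87 and 2.

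The transport kinesins were all active, 9 of 9 against 68.7% of all gene symbols, with a median of 1 RPKmM and quartiles of 0.96 and 3.45. Of these, 5 reached 1 RPKmM (55.6%), against 31.6% of all gene symbols. Kif1c, a kinesin-3 motor of vesicles and of cell protrusions, had 4.47 RPKmM and lies at chr11:70514050-70545466 on the plus strand. Kif5b, the heavy chain of conventional kinesin in most cells, had 4.14. Kif1b, a carrier of mitochondria and of vesicle precursors, had 3 entries, with 2.34 for NM_001290995 and NM_207682 and 3.45 for NM_008441, the widest spread in RPKmM among the entries of a kinesin gene. These 3 genes lay above the upper quartile of active genes. Kif3a, a subunit of heterotrimeric kinesin-2, which also serves transport in cilia, had 1.97, and its partner Kif3b had 0.96.

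The other transport motors lay near or below the median of active genes. Kif13b, a kinesin-3 that carries membrane cargo, had 1 RPKmM, and Kif13a, which moves recycling endosomes, had 0.98. Kif16b, a motor of early endosomes, had 0.52. Kifc3, a minus-end motor at cell junctions and in apical transport, had entries at 0.21 and 0.29 and was the lowest of the class. From Kif1c to Kifc3 the ratio was 15.4 (15.1 to 15.7 by rounding).

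Mitotic and transport kinesins did not separate. The ratio of their medians was 1.38, and among the 126 pairs of a mitotic and a transport gene the mitotic gene had the higher activity in 51.6%, with inactive genes taken as lowest. Kif22, Kif20a and Kif20b lay above every transport gene, while 4 transport genes lay above the mitotic median. When every RefSeq entry was counted instead of every gene, the ratio turned to 0.983. No order of these classes is therefore given.

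The neuronal kinesins were mostly active, at a lower median. Of 8 genes 7 were active (87.5%, against 68.7% of all gene symbols), with a median of 0.19 RPKmM and quartiles of 0.085 and 0.725. Kif21a and Kif3c reached 1 RPKmM, 25% of the class against 31.6% of all gene symbols, and none lay above the upper quartile of active genes, against 17.1%. With 8 genes these counts are near the shares of the table. Kif21a, a kinesin-4 that acts at microtubule ends in axons and in other cells, had 1.37, and Kif3c, a kinesin-2 found mainly in neurons, had 1.04. Kif5c, a heavy chain of conventional kinesin enriched in neurons, had 0.41, and Kif21b, a motor of dendrites, had 0.19. Kifc2, a minus-end motor of the nervous system, had 0.13. Kif5a, the neuronal heavy chain, and Kif1a, which carries precursors of synaptic vesicles, each had entries with identical values, at 0.04 and 0.03. Kif17, which carries receptors in dendrites, was marked Inactive.

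The median of mitotic kinesins was 7.26 times that of neuronal kinesins, and the median of transport kinesins was 5.26 times that. A mitotic gene was the more active in 83.0% of 112 pairs with a neuronal gene, and a transport gene in 84.7% of 72 pairs. The classes overlapped, since Kif3c lay above Kif15, Kif4, Kifc5b, Kif14 and Kif18a, and Kif21a above these and Kifc1. Kif3c and Kif21a also lay above the transport median of 1 RPKmM and above Kif13b, Kif13a, Kif3b, Kif16b and Kifc3. Kif21a, at 1.37, lay beside the mitotic median of 1.38 and above it when the lowest entries were taken (1.36) or inactive genes were set to 0 (1.215). With all entries counted, the ratios were 11.2 and 11.4, and with activities of at least 0.05 only they were 3.37 and 2.44. Of 11 genes listed as markers of neurons, 8 were active (72.7%, against 68.7% of all gene symbols), with a median of 0.615 RPKmM and a sum of 30.93. Nefm, Nefl and Tubb3, which encode cytoskeletal proteins, had 15.13, 8.43 and 6.01, whereas Rbfox3, Snap25 and Elavl4 were marked Inactive. Their part in the neuronal kinesin levels was not tested.

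Kinesins of cilia and of Hedgehog signalling had a median of 0.02 RPKmM over 5 active genes of 6 (83.3%, against 68.7% of all gene symbols), below the other classes. This order rests on the values near 0, since with activities of at least 0.05 only Kif24 and Kif7 remained and their median of 1.12 lay above those of the transport and neuronal genes. Kif3a and Kif3b, which also serve transport in cilia, were placed with the transport genes, at 1.97 and 0.96 RPKmM. No alternative moved them, so the order holds only for this division. Kif24, which restrains the formation of cilia at the mother centriole, stood apart at 1.74. Kif7, a regulator of Gli factors at the tip of the cilium, had 0.49. Kif9, a motor of motile cilia and flagella, had entries of 0.02, Kif27, a relative of Kif7, had 0.01, and Kif6 was active and listed at 0, a value rounded down. Kif19a, which trims the length of motile cilia, was Inactive. Of 8 markers of multiciliated cells 3 were active (37.5%, against 68.7%), none above 0.06, and Foxj1 was Inactive. A minimum of 0.05 RPKmM was reached by 2 of the 6 ciliary or signalling genes and by 5 of the 8 neuronal genes, against 58.9% of all gene symbols and 31 of the 41 kinesins.

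Of the remaining genes, Kif2a, a depolymerase that acts both in spindles and in the pruning of axons, had 2.05 RPKmM. Kif26b, an unusual kinesin with a role in kidney development, had 0.36, while its relative Kif26a and the epithelial gene Kif12 were Inactive. Kif1bp had 1.54, and Kif4-ps was Inactive. The 5 inactive kinesins spanned from 2.295 to 51.5 kb in the GENCODE vM1 annotation of mm9. The 3 active genes at or below 0.02 spanned 48.2 kb for Kif9, 67.3 kb for Kif27 and 294.7 kb for Kif6. The part of gene length in these calls was not tested. Over the 36 active kinesins Spearman's correlation of span and activity was -0.333 across genes, which are not replicates, and both measures rest on gene length. Within classes it was -0.558 over 13 mitotic, -0.6 over 9 transport, -0.4 over 5 ciliary or signalling and 0.393 over 7 neuronal genes. Median spans, inactive genes included, were 26.3 kb for 14 mitotic, 42.7 for 9 transport and 49.1 for 8 neuronal genes.

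The span of activity within a family, from its lowest to its highest active gene, differed between families. As a ratio it was widest in kinesin-3, kinesin-4 and kinesin-1, but kinesin-9 has no ratio, since Kif6 was listed at 0. The ratio in kinesin-4 rests on Kif27 at 0.01 RPKmM, the step of rounding. In kinesin-1, the 3 heavy chains of conventional kinesin, the order was Kif5b at 4.14 RPKmM, Kif5c at 0.41 and Kif5a at 0.04. The ratio of Kif5b to Kif5c was 10.1 (9.96 to 10.2 by rounding) and that of Kif5b to Kif5a was 103.5 (91.9 to 118.4). In kinesin-3, Kif1c was 149 times as active as Kif1a, with 127.6 to 179 allowed by rounding, and Kif1b was 115 times as active (98.4 to 138.2). Kinesin-4, which holds mitotic, neuronal and ciliary or signalling genes, ran from Kif27 at 0.01 to Kif21a at 1.37, and its neuronal genes Kif21a and Kif21b differed by a ratio of 7.21.

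In kinesin-14 the mitotic genes Kifc1 and Kifc5b, at 1.05 and 0.84, lay above the transport gene Kifc3 at 0.29 and the neuronal gene Kifc2 at 0.13, a span of 8.08. The 3 genes of kinesin-6, all mitotic, lay between 3.54 and 4.7 RPKmM, a ratio of 1.33, and Kif18b was 3.08 times Kif18a in kinesin-8, whose ciliary gene Kif19a was Inactive. The 3 active genes of kinesin-13, Kif2a, Kif24 and the mitotic Kif2c, lay between 1.38 and 2.05, while the mitotic Kif2b was Inactive. In kinesin-2 Kif3a was 2.05 times Kif3b, the neuronal gene Kif3c was 1.08 times Kif3b, and the neuronal gene Kif17 was Inactive. Each is a ratio of single pooled values, and the table gives no variation of a gene between libraries.

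**Figure D2:**
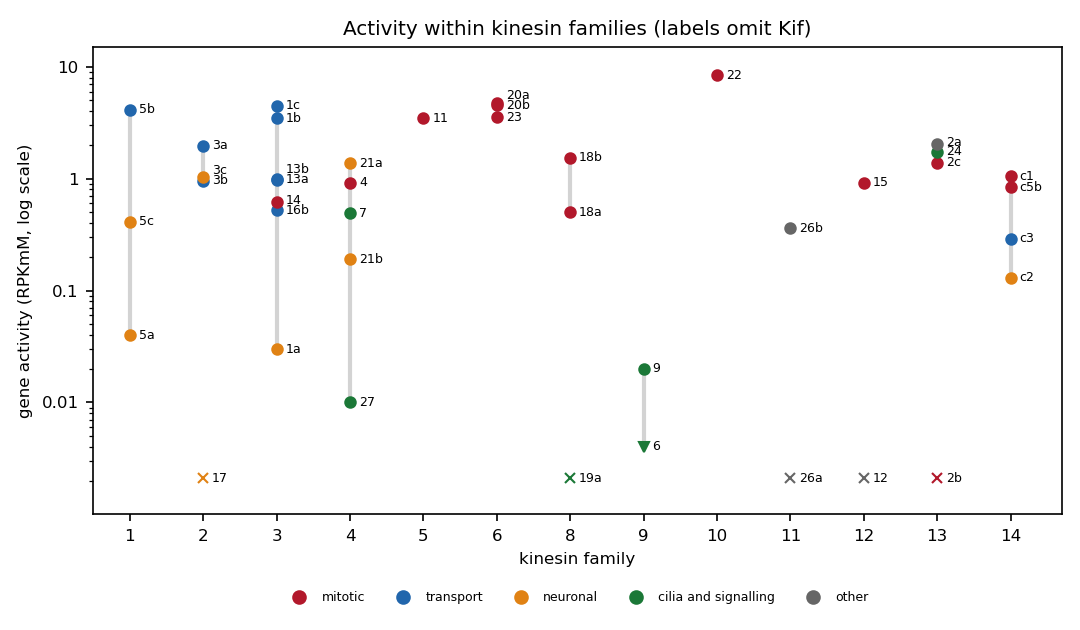
Gene activity in RPKmM on a log axis for the genes of each kinesin family, coloured by class, with crosses for genes marked Inactive and a triangle for Kif6, listed at 0. Grey lines join the lowest and highest active gene of a family and are long in kinesin-1 (0.04 to 4.14), kinesin-3 (0.03 to 4.47) and kinesin-4 (0.01 to 1.37) and short in kinesin-6 (3.54 to 4.7).

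Genes that work with these motors are set beside the 68.7% of all gene symbols that were active. The adaptors and light chains of transport kinesins had 14 of 15 genes active (93.3%), with a median of 0.855 RPKmM. Among the light chains of kinesin-1, Klc1 had 5.26, Klc2 1.77, Klc4 0.49 and Klc3 0.03. Kifap3, which joins Kif3a and Kif3b into a heterotrimer, had 0.86. Of 29 partners of mitotic kinesins, such as kinases of the spindle, kinetochore proteins and cyclins, all 29 were active, with a median of 3.51 and a range from 0.9 for Nuf2 to 21.3 for Top2a. Cenpe, the kinesin-7 motor of the kinetochore, which the symbol rule does not catch, had 5.07. Of the dyneins, the minus-end motors of the cell body and of cilia, 13 of 14 cytoplasmic genes were active at a median of 1.6 RPKmM and 2 of 12 axonemal dynein heavy chains active, Dnah2 and Dnah10, each at 0.01.

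The promoter windows were compared by the share of genes that held a motif. A CHR was present in 11 of 13 mitotic kinesins (84.6%), in 4 of the 20 other kinesins with a window (20.0%), and in 18.2% of the 15720 genes of the table that had a window. Those 4 were Kif1a, in a window whose start lay more than 250 bases from the vM1 gene start, Kif24, Kif26b and Kif27, and none of the 6 transport kinesins with a window held it. In the 24 mitotic partners with a window, from a list chosen with earlier results of these data known, 17 held a CHR (70.8%). The share was no higher among more active genes of the table, as the motif was held by 21.6% of inactive genes and by 16.3% of genes of at least 1 RPKmM. Restricted to 50 bases on either side of the start, a window chosen after the positions had been seen, the CHR was held by 9 of 13 mitotic kinesins (69.2%), 3 of 20 other kinesins (15%) and 4.81% of all genes.

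CCAAT boxes, the site of NF-Y, were searched as CCAAT on either strand, and no match in a kinesin window shared a base with a match of another motif. They were present in 9 of 13 mitotic kinesins (69.2%), 7 of 20 other kinesins (35.0%) and 42.0% of all genes. On the sense strand alone these shares were 38.5%, 15% and 24.1%. Both motifs were held by 8 of 13 mitotic kinesins (61.5%), 3 of 20 others (15%) and 7.43% of all genes. With the sense strand alone searched, both were held by 3 of 13 (23.1%), 1 of 20 (5.00%) and 2.51%. Within 50 bases of the start, on either strand, both were held by 6 of 13 mitotic kinesins (46.2%), by none of the 20 others and by 0.973% of all genes. The E2F motifs TTTGGCGC, TTTCCCGC, TTTCGCGC and TTTGCCGC were found in Kif15 and Kif18a only, 2 of 33 kinesins, and in 3.56% of all genes. The motif of the neuronal repressor REST, searched in a single long form, was in 8 of 15720 genes (0.0509%), so rare that nothing is read from its absence in the kinesin windows. A match of letters is a description and not a binding site, and a window without a match lacks only these letters.

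**Figure D3:**
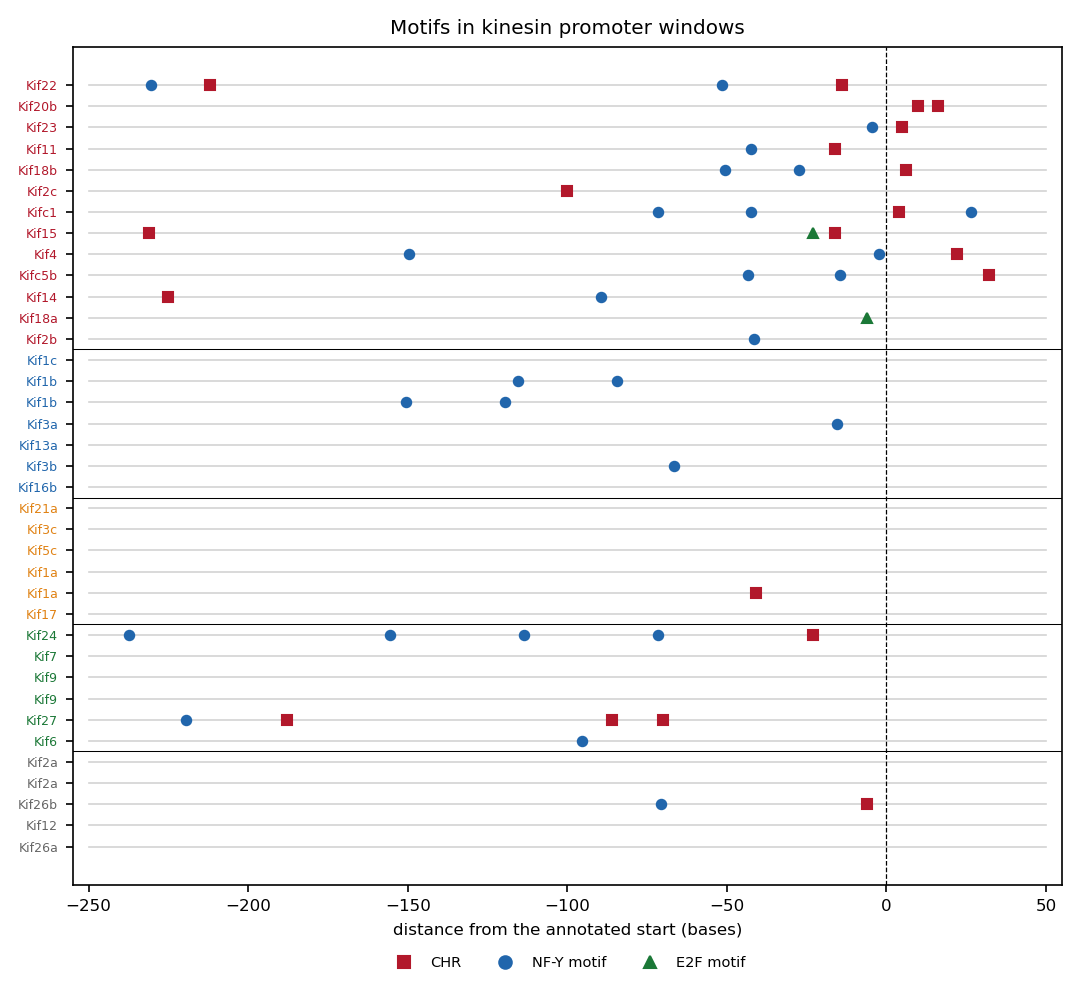
Positions of CHR, NF-Y and E2F motifs in 37 promoter windows of 33 kinesin genes, in bases from the annotated start, ordered by class and, within a class, by activity; a gene with 2 windows has 2 rows. Of the 13 mitotic kinesins at the top, 9 have a CHR within 50 bases of the start, and the 6 transport genes have none in the window.

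Upstream stretches of 4 active kinesins are given in mm9, each of the 120 bases before the start in the direction of transcription, to set mitotic promoters with both motifs beside promoters with neither. CHR and CCAAT matches on either strand are in capitals.
Kif11 (chr19:37450752-37450871, plus strand): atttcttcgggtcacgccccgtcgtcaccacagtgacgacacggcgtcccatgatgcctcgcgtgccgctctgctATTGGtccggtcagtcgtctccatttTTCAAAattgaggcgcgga
Kif22 (chr7:134185935-134186054, minus strand): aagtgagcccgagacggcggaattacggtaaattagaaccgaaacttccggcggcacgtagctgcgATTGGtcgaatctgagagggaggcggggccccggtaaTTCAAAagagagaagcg
Kif1c (chr11:70513930-70514049, plus strand): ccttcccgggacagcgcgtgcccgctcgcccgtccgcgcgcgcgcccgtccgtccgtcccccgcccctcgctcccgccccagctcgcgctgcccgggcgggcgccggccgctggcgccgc
Kif5c (chr2:49474686-49474805, plus strand): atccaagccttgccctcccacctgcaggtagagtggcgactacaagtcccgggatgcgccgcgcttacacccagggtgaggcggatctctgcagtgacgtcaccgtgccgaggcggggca

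Kif11 and Kif22 each carried a CCAAT box ahead of the CHR, with first bases at -45 and -19 in Kif11 and at -54 and -17 in Kif22. Both elements read on the strand opposite to the gene. The stretch of Kif1c, a gene of similar activity to Kif11 (4.47 against 3.47 RPKmM), was 86.7% G and C with 26 CpG dinucleotides and held neither motif, against 58.3% and 14 in Kif11 and 55.8% and 13 in Kif22. That of the neuronal gene Kif5c, at 0.41 RPKmM, was 65.8% G and C with 10 CpG and also held neither. The part of base composition in the shares of motifs was not tested.

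**Figure D4:**
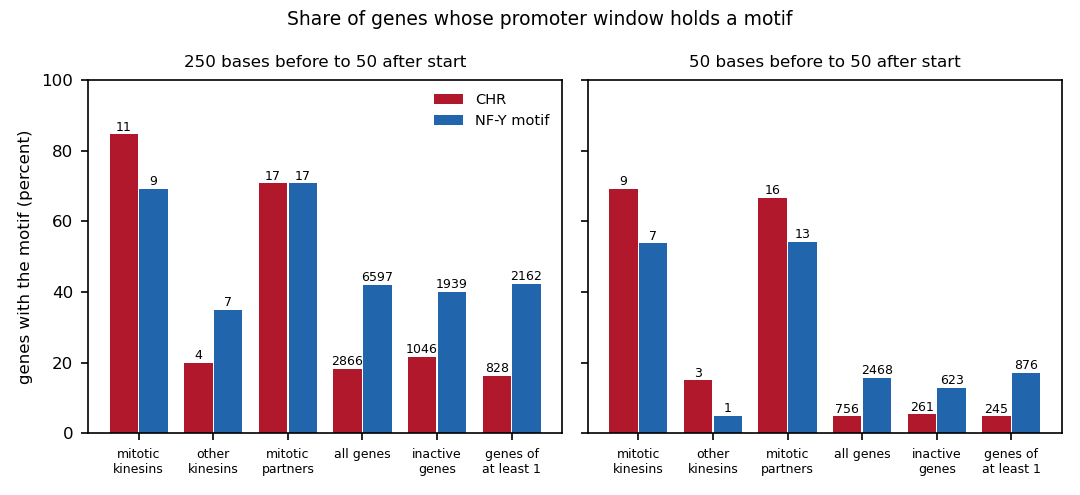
Percent of genes whose promoter window holds a CHR (red) or an NF-Y motif (blue), with the number of such genes above each bar, for windows of 250 bases before to 50 after the start (left) and 50 bases on either side (right). The CHR is in 84.6% of mitotic kinesins and 70.8% of mitotic partners on the left, against 20.0% of other kinesins and 18.2% of all genes; genes of at least 1 refers to RPKmM.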

How the data were processed

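The authors deposited 1 table of gene activities in RPKmM, an RPKM over mappable bases, and no other file was used. Per the labels and methods, reads of 2 GRO-seq libraries (base calls by CASAVA 1.8) were mapped to mm9 with Bowtie2, trimmed and remapped where they failed, cleared of rRNA and tRNA repeats and pooled. Activity is the density of sense reads in the gene body, and entries not above gene deserts at the authors' false discovery rate were marked Inactive. Pooling hides the variation between libraries, rounding to 0.01 coarsens low values, and unique mapping can lower near-identical genes.

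Here, a gene took its highest entry, and class medians and quartiles were computed over active genes. Members, classes and lists were chosen with earlier results of these data known, and every kinesin is accounted for by name. No test or resampling was run, since no value per library was used. Motifs were searched in RefSeq promoter windows (GRCm38.p6), matched through RefSeq identifiers for 23942 of 24165 entries, and windows were placed in mm9 by exact match, with 32 of 37 kinesin windows starting within 250 bases of a GENCODE vM1 gene start. The searches and summaries were tested on simulated data. A comparison of protein sequences was not run, as none were used here. Alternatives were all entries, lowest entries, inactive genes at 0, a minimum of 0.05 or 1 RPKmM, geometric means with pseudocounts of 0.01 and 0.001, other class lists, and other windows or strands. A value with no replicate was taken as moved where it differed by over 1.5 times, and a share where it left the 95% Clopper-Pearson interval of the main share, which covers counting error only. Python 3.11.15, numpy 2.4.6, pandas 2.3.3, scipy 1.17.1 and matplotlib 3.10.9 were used.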

Additional observations from a re-analysis of the deposited data

How the results depend on the processing

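The ratio of mitotic to transport medians reversed, from 1.38 to 0.983, when all entries were counted, so it carries no order. Mitotic and transport medians stayed above the neuronal one under every alternative tried. The ratio of mitotic to neuronal medians moved from 7.26 to 11.2 with all entries, to 3.37 with activities of at least 0.05 and to 4.6 with Kif1b as neuronal, a choice made after seeing the data, and that of transport to neuronal medians moved from 5.26 to 11.4, 2.44 and 3.3. The neuronal median moved from 0.19 to 0.41 and 0.3 under the last 2 of these. The ciliary median moved from 0.02 to 1.12 with activities of at least 0.05, where 2 of 5 active genes remained and it lay above the transport and neuronal medians, and to 0.0779 and 0.0446 as geometric means with pseudocounts of 0.01 and 0.001. At 1 RPKmM or more the active genes numbered 8 of 13 mitotic, 5 of 9 transport, 2 of 7 neuronal and 1 of 5 ciliary. On the sense strand alone the CHR was in 46.2% of mitotic kinesins, in an unchanged 20% of other kinesins and in 11% of all genes. The CCAAT box was then in 38.5% of mitotic kinesins, in 15% of other kinesins and in 24.1% of all genes. From 150 bases before the start these were 11% (CHR) and 33.2% (CCAAT) of all genes, and within 50 bases, a window also chosen after seeing the data, 4.81% and 15.7%, with the CCAAT box in 5.00% of other kinesins. The other class medians, their ratios and the counts of active genes moved by less than 1.5 times. The other CHR and CCAAT shares of mitotic kinesins, other kinesins and all genes stayed within the interval of the share. Shares of both motifs together and of the E2F motifs were not compared with an interval. On the sense strand alone both motifs were held by 23.1% of mitotic kinesins and 2.51% of all genes, down from 61.5% and 7.43%. No library was left out, because the table used here holds pooled values only, and no paired analysis was possible because there is a single group. Levels near 0.01 RPKmM are limited by rounding and by read depth, which the table does not give.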
